A study of Mus musculus with 5 samples.

Results

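Claudins are the membrane proteins that set what can pass between neighbouring epithelial cells, and 10 of them that are known from kidney tubules were followed here: Cldn1, Cldn2, Cldn3, Cldn4, Cldn7, Cldn8, Cldn10, Cldn14, Cldn16 and Cldn19. They were found on the arrays by the symbol that the array design gives a probe, or by the current symbol of the accession it lists. This gave 12 of the 41174 non-control probes and 10 of the 20053 named genes. The measurements came from the kidney papilla, where the medulla ends in the renal pelvis, of H2B-GFP mice, in which a histone fused to GFP marks the nucleus. All sample titles call the material control kidney papilla. The animals had a doxycycline pulse as embryos and were then chased until they were about 2 to 3 months of age. A cell that divides dilutes the label, so a cell that still carries GFP is taken to be one that divided little. Papillae were dispersed with collagenase, live cells were separated by FACS into GFP+ and GFP- cells, and cDNA of both was amplified by a global PCR (SuperAmp). The comparison asks which transcripts set the GFP+ cells apart from the GFP- cells of the same papillae. Both populations came from mice of the same strain and age with the same pulse and chase, so GFP- cells are cells without label, not cells of animals without the transgene. The sources used here do not give the promoter behind the transgene, the number of mice per replicate or the number of sorted cells. The labels call the replicates biological, and there were 5, each with 1 array on which Cy5 marked the GFP+ and Cy3 the GFP- material, with no dye swap.

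The claudins differ in what they let through. Cldn2 forms a pore for sodium and water in leaky epithelia such as the proximal tubule and the descending thin limb, whereas Cldn1 tightens barriers. In the collecting duct Cldn3, Cldn4, Cldn7 and Cldn8 make up the tight, chloride-selective barrier on which salt reabsorption and potassium secretion depend. In the thick ascending limb Cldn10 carries sodium, Cldn16 and Cldn19 join to let calcium and magnesium through, and Cldn14 restrains that Cldn16 and Cldn19 pathway downstream of the calcium-sensing receptor. The thick ascending limb lies outside the papilla, and the thin limbs and the inner medullary collecting duct lie within it.

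The upstream sequences of Cldn2, Cldn3 and Cldn4 are shown because Cldn2 and Cldn4 shared a sign pattern over the 5 arrays, and because Cldn3 and Cldn4, which lie close together on chromosome 5, had mean ratios of opposite sign. None of these genes passed the test between populations described below. RefSeq annotation of GRCm38.p6 gave 14 windows for 9 of the 10 genes, each running from 250 bases before to 50 after a start. The gene without a window was Cldn8, which had the same sign pattern as Cldn2 and Cldn4. Each is written 5′ to 3′ on the gene's own strand, and capitals mark a match to a TATA box (TATAAA) or a GC box (GGGCGG), searched on both strands. The Cldn2 window is chrX:139800558-139800857 on the plus strand, that of Cldn3 is chr5:134985964-134986263 on the plus strand, and that of Cldn4 is chr5:134946885-134947184 on the minus strand.
Cldn2: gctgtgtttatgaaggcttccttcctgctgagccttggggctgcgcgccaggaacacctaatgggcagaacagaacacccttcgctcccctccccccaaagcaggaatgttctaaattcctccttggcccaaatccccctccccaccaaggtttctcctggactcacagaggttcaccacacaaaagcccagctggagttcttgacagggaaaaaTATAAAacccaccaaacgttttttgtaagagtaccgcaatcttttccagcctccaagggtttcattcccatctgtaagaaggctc
Cldn3: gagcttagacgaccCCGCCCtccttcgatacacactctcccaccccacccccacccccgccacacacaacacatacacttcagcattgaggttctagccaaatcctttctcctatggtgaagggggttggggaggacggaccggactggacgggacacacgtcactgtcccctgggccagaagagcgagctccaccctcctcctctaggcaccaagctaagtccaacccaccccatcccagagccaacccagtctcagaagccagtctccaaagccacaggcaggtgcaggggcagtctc
Cldn4: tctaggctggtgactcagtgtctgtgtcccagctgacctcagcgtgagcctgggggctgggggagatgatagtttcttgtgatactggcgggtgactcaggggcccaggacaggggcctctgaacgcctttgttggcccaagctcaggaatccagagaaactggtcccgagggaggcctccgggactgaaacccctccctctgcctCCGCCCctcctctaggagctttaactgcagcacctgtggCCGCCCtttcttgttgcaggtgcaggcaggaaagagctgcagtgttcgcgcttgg
The Cldn2 window held a TATA box and no GC box, at 51.3% G and C. The Cldn3 window held 1 GC box and the Cldn4 window 2, at 60.7% and 61.0% G and C, and neither held TATAAA. Over the 14 windows a TATA box was present in 1 and a GC box in 7, against 13.6% and 35.7% of 32851 mouse promoters. The 14 are not separate sequences, since the 2 Cldn19 windows, both with GC boxes, overlap over most of their length and 2 of the 3 Cldn14 windows overlap in part. The Grainyhead-like motif AACNGGTT was in 0 of the 14 windows (2.09% of all promoters), and the cyclic AMP response element TGACGTCA was in 1, a window of Cldn7 (1.79% of all promoters). These are matches of letters within these windows and were not tested as binding sites.

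Levels are given as the deposited intensity divided by that of the negative control probe in the same channel of the same array, and 3 times that probe counts as above background. Levels of different probes are not comparable with each other. Ratios are log2 of the second intensity over the first after loess normalization, read as GFP+ over GFP-. That direction is likely but not settled, since the sources used here do not state the dye of each intensity column, and all signs would turn if it were the opposite. Normalization turned the sign of 4 of the 50 gene ratios and the median size of its change was 0.28. Between 59.3% and 72.4% of probes were above background for GFP+ cells, and between 57.6% and 75.2% for GFP- cells. Replicate 1 stood apart from the rest. Across genes its ratios correlated with those of the other arrays at -0.154 to -0.0590, whereas the other arrays correlated among themselves at 0.0495 to 0.201. Transcripts known from a segment outside the papilla were bright in both populations. Umod, the urinary protein of the thick ascending limb, was at 2261 to 20468 times the negative control in GFP+ cells and 4831 to 39528 times in GFP- cells. Aqp2, the water channel of the collecting duct, was at 187 to 8774 times in GFP+ cells and 236 to 17626 times in GFP- cells.

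All 10 claudins were above background in at least 1 population on 3 or more arrays, as were 17424 of the 20053 named genes. None of the 10 passed the test between GFP+ and GFP- cells after adjustment. The 5 mean ratios above 0 were those of Cldn2, Cldn4, Cldn7, Cldn8 and Cldn10, and the 5 below 0 were those of Cldn1, Cldn3, Cldn14, Cldn16 and Cldn19. With limma, 0 of the 10 claudins passed an adjusted p of 0.05, where 0% of the 17424 genes tested passed and the lowest adjusted p was 0.825. Among probes, 0 of the 11 claudin probes that could be tested passed, again with 0% of 29806 probes. At an unadjusted p under 0.05 limma gave 1 of 10 claudins, Cldn16, against 4.94% of genes. A ratio above 0 on all 5 arrays was seen for 0 of 10, against 4.71% of genes, and a ratio below 0 on all 5 for 1 of 10, again Cldn16, against 2.91%. A mean difference of at least 2-fold was reached by 5 of 10, namely Cldn2, Cldn3, Cldn4, Cldn10 and Cldn16, against 25.9% of genes. With 1 array left out, 3 of these 5 could fall below 2-fold, at a mean of 0.61 for Cldn2 without replicate 5, and of -0.72 for Cldn3 and 0.48 for Cldn10 without replicate 3. The median of the 10 mean ratios was 0.01, beside 0.00 for all genes. In bulk RNA of this kind, fewer cells of a type and less RNA per cell cannot be told apart.

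**Figure D1:**
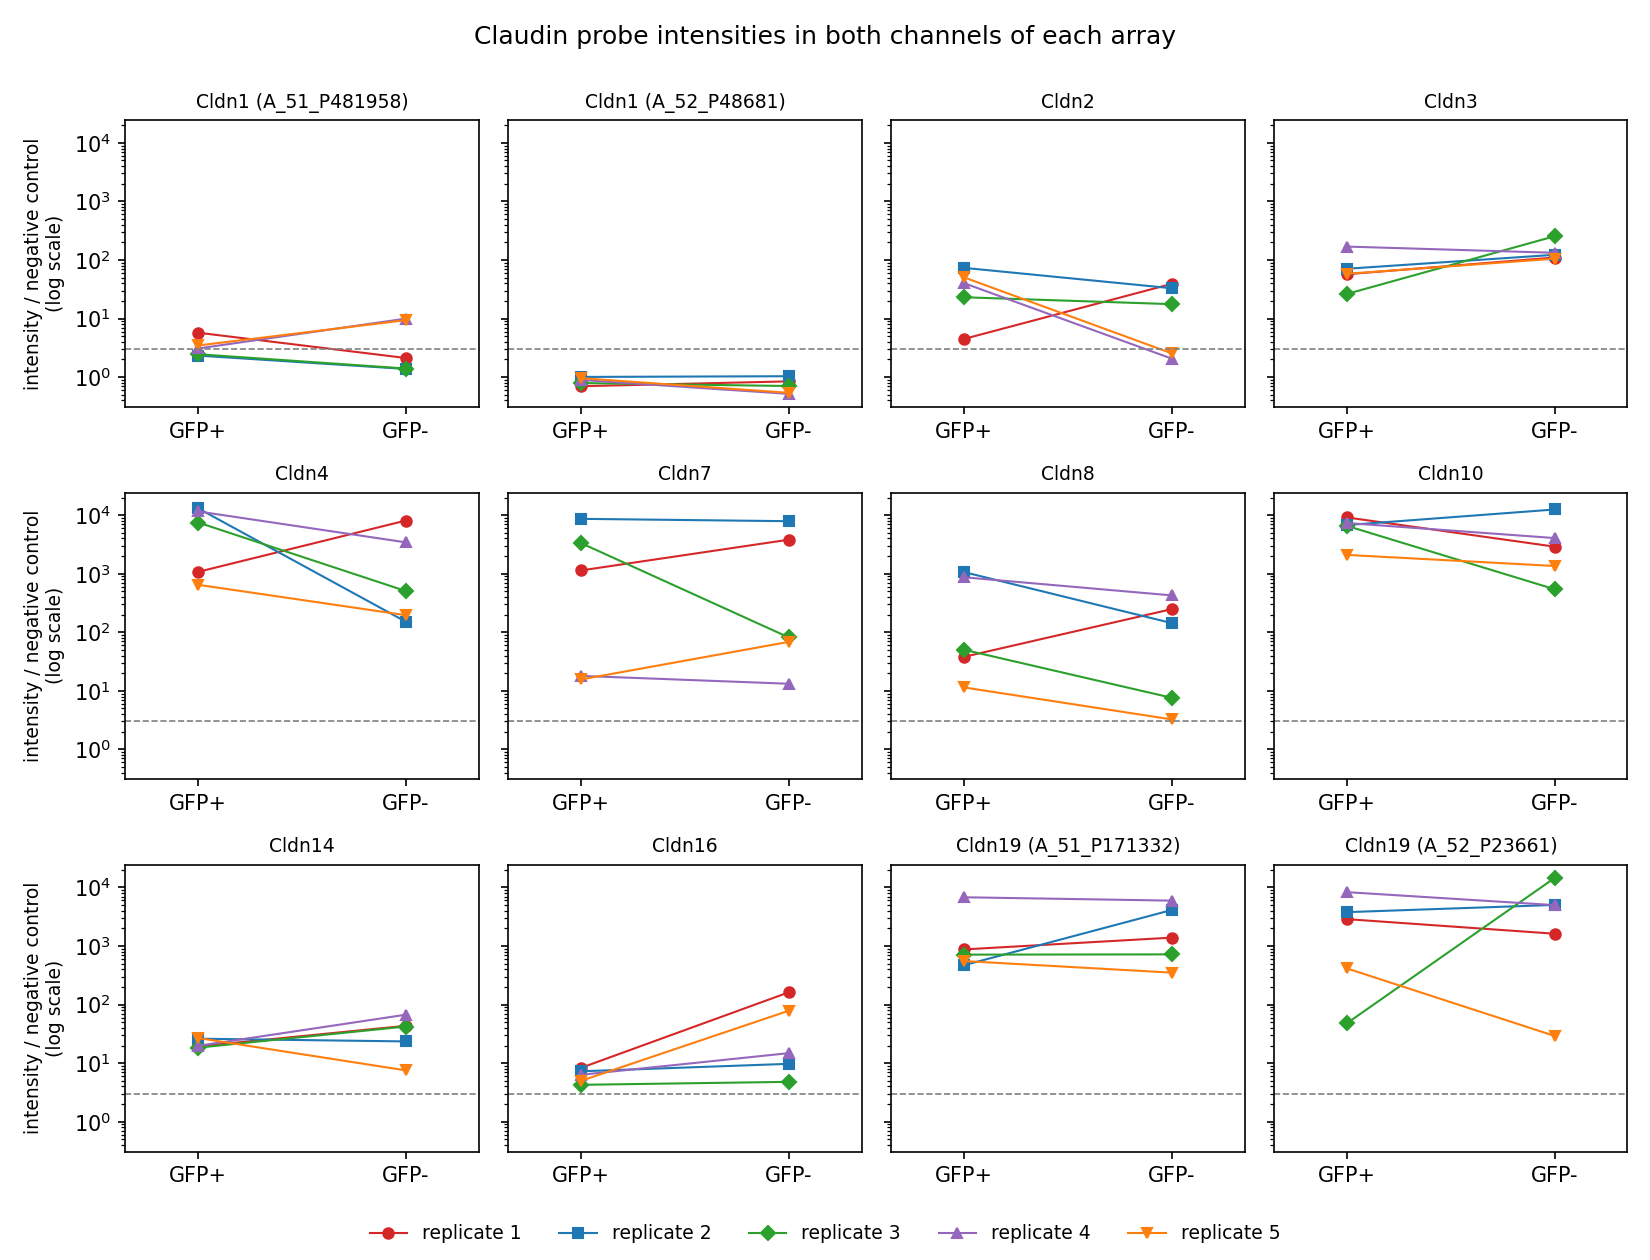
Intensity of each of the 12 claudin probes as a multiple of the negative control probe (log axis), 1 panel per probe, with the 5 GFP+ samples at left and the 5 GFP- samples at right and a line joining both samples of an array. The dashed line marks 3 times the negative control. Every panel but that of Cldn16 has lines that go up and lines that go down between the populations. All 5 Cldn16 lines run upward to GFP-, from GFP+ samples between 4.26 and 8.33 times.

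Among the claudins of the collecting duct, Cldn4 had the widest difference on single arrays. This barrier claudin measured 1076.5, 13066, 7491, 11583 and 647 times the negative control in GFP+ cells of replicates 1 to 5, against 8099.6, 151, 505, 3430.2 and 196 times in GFP- cells. GFP+ cells were thus the higher on replicates 2 to 5 and the lower on replicate 1, and the ranges overlapped. The ratios were -2.68, 6.13, 4.14, 2.00 and 0.81, with a mean of 2.08 ± 3.35 (SD, n = 5; 95% interval -0.82 to 4.98; limma adjusted p = 0.825). Without replicate 1 the mean was 3.27 ± 2.35 (SD, n = 4; limma adjusted p = 0.360), and without replicate 2 it was 1.07 ± 2.85 (SD, n = 4).

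Cldn8, which works with Cldn4 in the chloride pathway of the collecting duct, turned over on the same array. Its levels were 38.1, 1065, 50.3, 869 and 11.4 times the negative control in GFP+ cells, against 249, 143, 7.60, 426 and 3.25 times in GFP- cells. The ratios were -1.68, 2.50, 2.78, 0.55 and 0.69, with a mean of 0.97 ± 1.79 (SD, n = 5; 95% interval -0.77 to 2.70; limma adjusted p = 0.825). As for Cldn4, the ratio was below 0 on replicate 1 alone, and without that array its mean was 1.63 ± 1.17 (SD, n = 4; limma adjusted p = 0.411). Without replicate 2 or replicate 3 it was 0.58 ± 1.82 or 0.51 ± 1.71 (SD, n = 4 each).

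Cldn3, another barrier claudin, leaned the other way. It stood at 57.1, 70.9, 26.3, 169 and 58.1 times the negative control in GFP+ cells, against 110, 123, 255, 133 and 105 times in GFP- cells. The ratios were 0.03, -1.10, -2.81, -0.35 and -1.48, with a mean of -1.14 ± 1.11 (SD, n = 5; 95% interval -2.44 to 0.15; limma adjusted p = 0.825). GFP+ cells were the lower on replicates 2 to 5 after normalization, and on the deposited intensities they were the lower on replicates 1, 2, 3 and 5 and the higher on replicate 4, with log2 ratios of -0.51, -0.91, -3.27, 0.15 and -1.19. Without replicate 1 the normalized mean was -1.44 ± 1.03 (SD, n = 4; limma adjusted p = 0.424), and without replicate 3 it was -0.72 ± 0.69 (SD, n = 4).

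Cldn7, a claudin of distal nephron and collecting duct that also lies along the lateral membrane, had a large difference on a single array. It was at 1139, 8654, 3327, 18.0 and 15.7 times the negative control in GFP+ cells, against 3817, 7887, 81.6, 13.2 and 68.6 times in GFP- cells. Its level differed widely between arrays, and replicates 4 and 5 were low in both populations. The ratios were -1.46, -0.03, 5.66, 0.10 and -2.46, with a mean of 0.36 ± 3.14 (SD, n = 5; 95% interval -2.38 to 3.10; limma adjusted p = 0.948). Replicate 3 set the sign of that mean, which was -0.96 ± 1.22 without it (SD, n = 4).

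Cldn2, the pore-forming claudin of leaky segments, shared its sign pattern with Cldn4 and Cldn8. It measured 4.49, 73.3, 23.1, 40.1 and 50.4 times the negative control in GFP+ cells, against 39.2, 32.9, 17.6, 2.07 and 2.54 times in GFP- cells. All 5 GFP+ samples were above background, and so were the GFP- samples of replicates 1 to 3 only. The ratios were -1.97, 0.81, 0.58, 3.01 and 3.18, with a mean of 1.12 ± 2.11 (SD, n = 5; 95% interval -0.84 to 3.08; limma adjusted p = 0.825). The ratios of replicates 4 and 5, and with them the mean and its interval, rest on GFP- signals below the background limit and have no exact size. Without replicate 1 the mean was 1.89 ± 1.39 (SD, n = 4; limma adjusted p = 0.404), and without replicate 4 or replicate 5 it was 0.65 ± 2.10 or 0.61 ± 2.04 (SD, n = 4 each).

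Cldn1, a barrier claudin, split the arrays in another way. Its brighter probe, A_51_P481958, measured 5.72, 2.33, 2.46, 3.08 and 3.47 times the negative control in GFP+ cells, against 2.12, 1.38, 1.40, 9.97 and 9.39 times in GFP- cells. The signal was above background in 3 of 5 GFP+ samples and in 2 of 5 GFP- samples, so the level was close to the limit of the arrays and the ratios have no exact size. The ratios were 1.36, 0.14, 0.43, -1.79 and -1.86, with a mean of -0.35 ± 1.43 (SD, n = 5; 95% interval -1.83 to 1.14; limma adjusted p = 0.907). Replicates 4 and 5, the arrays with the highest Cldn2 ratios, were those on which the Cldn1 ratio was below 0. The second probe, A_52_P48681, was at about the level of the negative control or below it on every array, and was not tested. It measured 0.70 to 1.01 times the negative control in GFP+ cells and 0.52 to 1.04 times in GFP- cells.

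A pattern of 1 sign on replicates 2 to 5 and the other on replicate 1 was thus found for 4 of 10 claudins, Cldn2, Cldn3, Cldn4 and Cldn8, against 17.9% of genes. Cldn3 belongs to them by a normalized ratio of 0.03 and does not on the deposited intensities. With replicate 1 left out, limma gave an unadjusted p under 0.05 for the same 4 of 10 claudins, against 11.5% of genes, and called 0 of 17424 genes at an adjusted p of 0.05 (lowest 0.326). Leaving out the array of opposite sign lowers the p of such genes by construction. With replicate 2, 3, 4 or 5 left out, an unadjusted p under 0.05 in limma was given to 1, 1, 0 and 0 claudins. Of the 17424 genes, 667, 673, 597 and 629 had such a p, beside 1999 with replicate 1 left out.

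**Figure D2:**
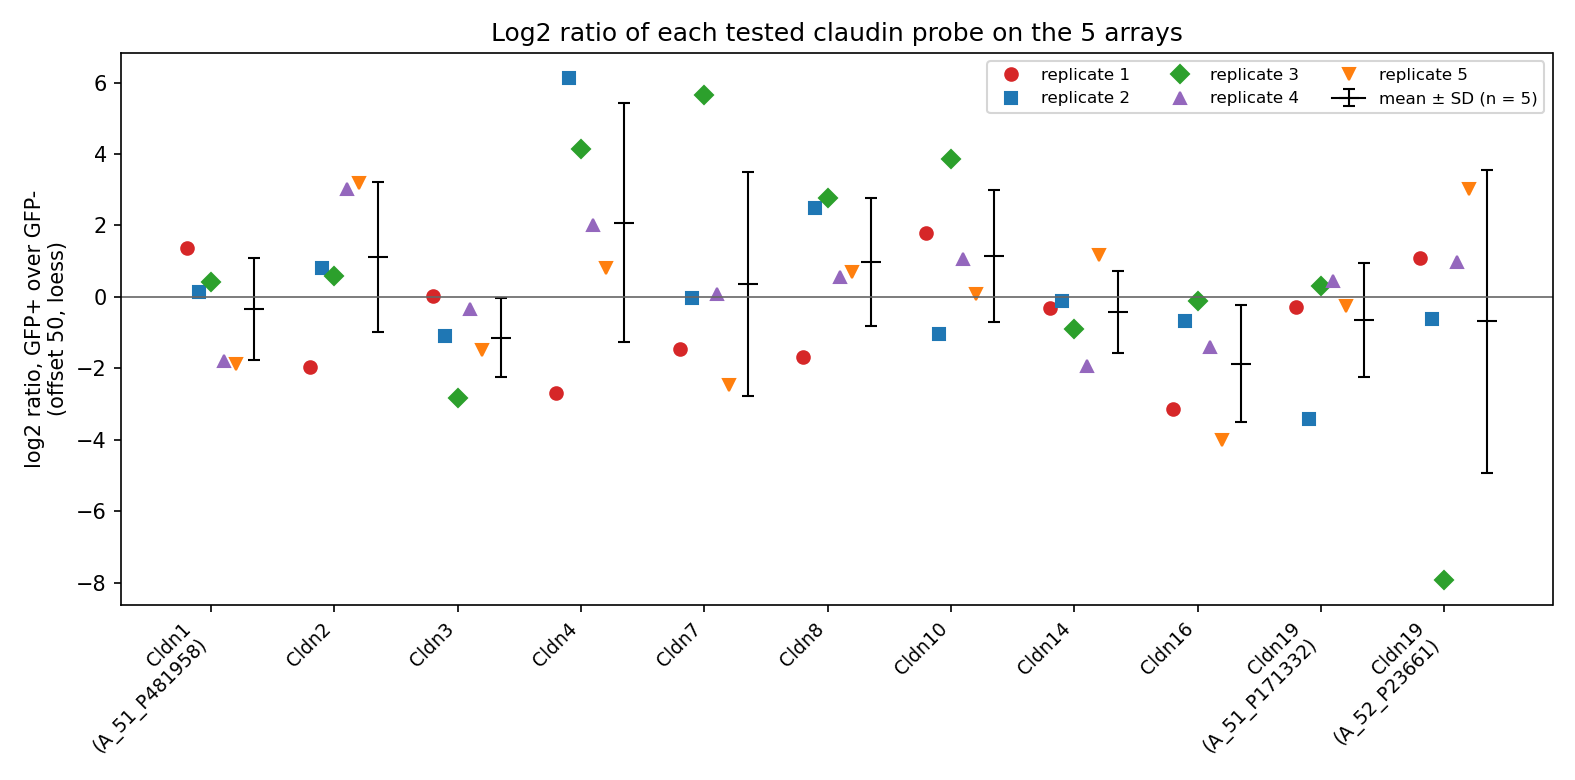
Normalized log2 ratio, GFP+ over GFP- as likely direction, of the 11 tested claudin probes on each of the 5 arrays (points, coloured by replicate), with the mean and SD over arrays (n = 5). Only Cldn16 has all 5 points on 1 side of 0, and replicate 1 lies across 0 from the other arrays for Cldn2, Cldn4 and Cldn8 and, at 0.03, for Cldn3.

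Among the claudins of the thick ascending limb, Cldn16 was the lower in GFP+ cells on every array. This partner of Cldn19 in the calcium and magnesium pathway stood at 8.33, 7.26, 4.26, 6.33 and 5.00 times the negative control in GFP+ cells, against 162, 9.74, 4.79, 14.8 and 78.7 times in GFP- cells. GFP+ samples lay within a narrow, dim range, and GFP- samples were far above it on replicates 1 and 5 only, so the ranges overlapped. The ratios were -3.13, -0.67, -0.11, -1.41 and -4.00, with a mean of -1.86 ± 1.65 (SD, n = 5; 95% interval -3.50 to -0.23). Its unadjusted p in limma was 0.0310 and its adjusted p was 0.825, at rank 486 of 17424 genes. Leaving out replicate 1, 4 or 5 took its unadjusted p in limma above 0.05, with means of -1.55 ± 1.72, -1.98 ± 1.88 and -1.33 ± 1.31 (SD, n = 4 each).

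Cldn19 did not follow Cldn16, and its 2 probes disagreed. The brighter, A_52_P23661, measured 2877, 3791, 48.2, 8314 and 414 times the negative control in GFP+ cells, against 1621, 5031, 14603, 4994 and 29.1 times in GFP- cells. Its ratios were 1.10, -0.62, -7.91, 0.99 and 3.03, with a mean of -0.68 ± 4.24 (SD, n = 5; 95% interval -4.28 to 2.92; limma adjusted p = 0.926). Replicate 3 set the sign, since without it the mean was 1.12 ± 1.50 (SD, n = 4). The other probe, A_51_P171332, measured 875, 470, 713, 6799 and 554 times the negative control in GFP+ cells, against 1391, 4127, 719.5, 5958 and 351 times in GFP- cells. Its ratios were -0.28, -3.42, 0.30, 0.44 and -0.25, with a mean of -0.64 ± 1.58 (SD, n = 5; limma adjusted p = 0.854 over all probes). On replicate 3 the brighter probe was far below 0 and the other near 0, while on replicate 2 the order was turned. The platform annotation lists the probes under different RefSeq transcripts of the gene, whereas the array design gives both the same transcript. The cause of the disagreement was not tested.

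Cldn10, the sodium pathway of this segment, was bright in both populations. It was at 9143, 6779, 6549.9, 7346 and 2094 times the negative control in GFP+ cells, against 2897, 12505, 542, 4064 and 1356 times in GFP- cells. The ratios were 1.80, -1.04, 3.85, 1.05 and 0.09, with a mean of 1.15 ± 1.85 (SD, n = 5; 95% interval -0.62 to 2.92; limma adjusted p = 0.825). GFP+ cells were the higher on all arrays but replicate 2, whose GFP- sample was the brightest of the 10. Without replicate 3 the mean was 0.48 ± 1.23 (SD, n = 4).

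Cldn14, which limits the Cldn16 and Cldn19 pathway, kept to a narrow range in GFP+ cells. It measured 19.3, 26.1, 18.4, 19.8 and 26.8 times the negative control in GFP+ cells, against 43.4, 23.5, 42.2, 67.2 and 7.52 times in GFP- cells. The GFP- samples thus spread on both sides of the GFP+ range. The ratios were -0.31, -0.12, -0.89, -1.94 and 1.17, with a mean of -0.42 ± 1.14 (SD, n = 5; 95% interval -1.73 to 0.89; limma adjusted p = 0.875).

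On every array claudin ratios of both signs stood side by side, with 4, 4, 6, 6 and 6 of the 10 above 0 on replicates 1 to 5. Of the 17424 genes tested, 9214, 9206, 8990, 9089 and 8677 were above 0 on these arrays. A difference of at least 2-fold was found for 8, 4, 6, 6 and 7 of the 10 on these arrays, where 49.7%, 47.9%, 42.0%, 48.1% and 48.2% of genes reached it. The median claudin ratio was -0.89, -0.08, 0.50, 0.32 and 0.39, beside 0.09, 0.08, 0.04, 0.07 and -0.00 for all genes. On replicate 3, for example, Cldn7 was at 5.66 and Cldn19 at -7.91.

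The lists of markers for principal cells, intercalated cells and the thin limb had their lowest median ratio on replicate 1. So did the list of general epithelial genes, at -0.79, and the claudins themselves, at -0.89. The 13 principal cell markers of the collecting duct had median ratios of -2.60, 2.51, 0.83, -0.06 and 0.19 on replicates 1 to 5, and 5, 9, 8, 6 and 8 of them were above 0. Their summed intensity ranged over 70101 to 1018421 units in GFP+ cells and 26468 to 825596 units in GFP- cells, and 10 to 13 of 13 were above background in either population. Aqp2 itself had ratios of -6.24, 4.53, 0.83, 1.66 and 1.12, below 0 on replicate 1 alone as Cldn4 and Cldn8 were. The 10 tested intercalated cell markers, of the acid-handling cells of the duct, had medians of -1.86, 1.37, 0.33, 0.84 and 1.72, with sums of 145827 to 870924 units in GFP+ cells and 62802 to 628160 units in GFP- cells, and 9 to 10 of 10 were above background in either. The 11 thin limb markers had medians of -1.79, 1.20, 1.20, 2.66 and 1.50, with sums of 239174 to 1834327 units in GFP+ cells and 574846 to 1662054 units in GFP- cells, and all 11 were above background on every array. Genes of the lists were counted only if they had reached the background limit needed for testing. The part of the cell make-up in the ratios of Cldn2, Cldn4 and Cldn8 was not tested.

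The 12 thick ascending limb markers did not follow Cldn16. Their medians were 1.61, -0.56, -1.51, -0.27 and 0.50, with 9, 5, 3, 6 and 9 of them above 0, whereas Cldn16 was below 0 on all arrays and most so on replicates 1 and 5. Their sums were 379885 to 1725603 units in GFP+ cells and 522027 to 4346160.4 units in GFP- cells, with 11 to 12 of 12 above background in GFP+ cells and 9 to 12 in GFP- cells. Umod had ratios of 1.99, -1.31, -2.34, 1.29 and -3.94, and Slc12a1, the salt cotransporter of the segment, had 0.86, -0.33, -2.51, 0.04 and 0.30. The 10 tested proximal tubule markers had medians of 0.59, -0.93, -0.31, 0.18 and -0.74, with sums of 9998 to 131682 units in GFP+ cells and 6475.0 to 233324 units in GFP- cells, and 8 to 10 of 10 were above background in either population. Their part in the claudin ratios was not tested.

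**Figure D3:**
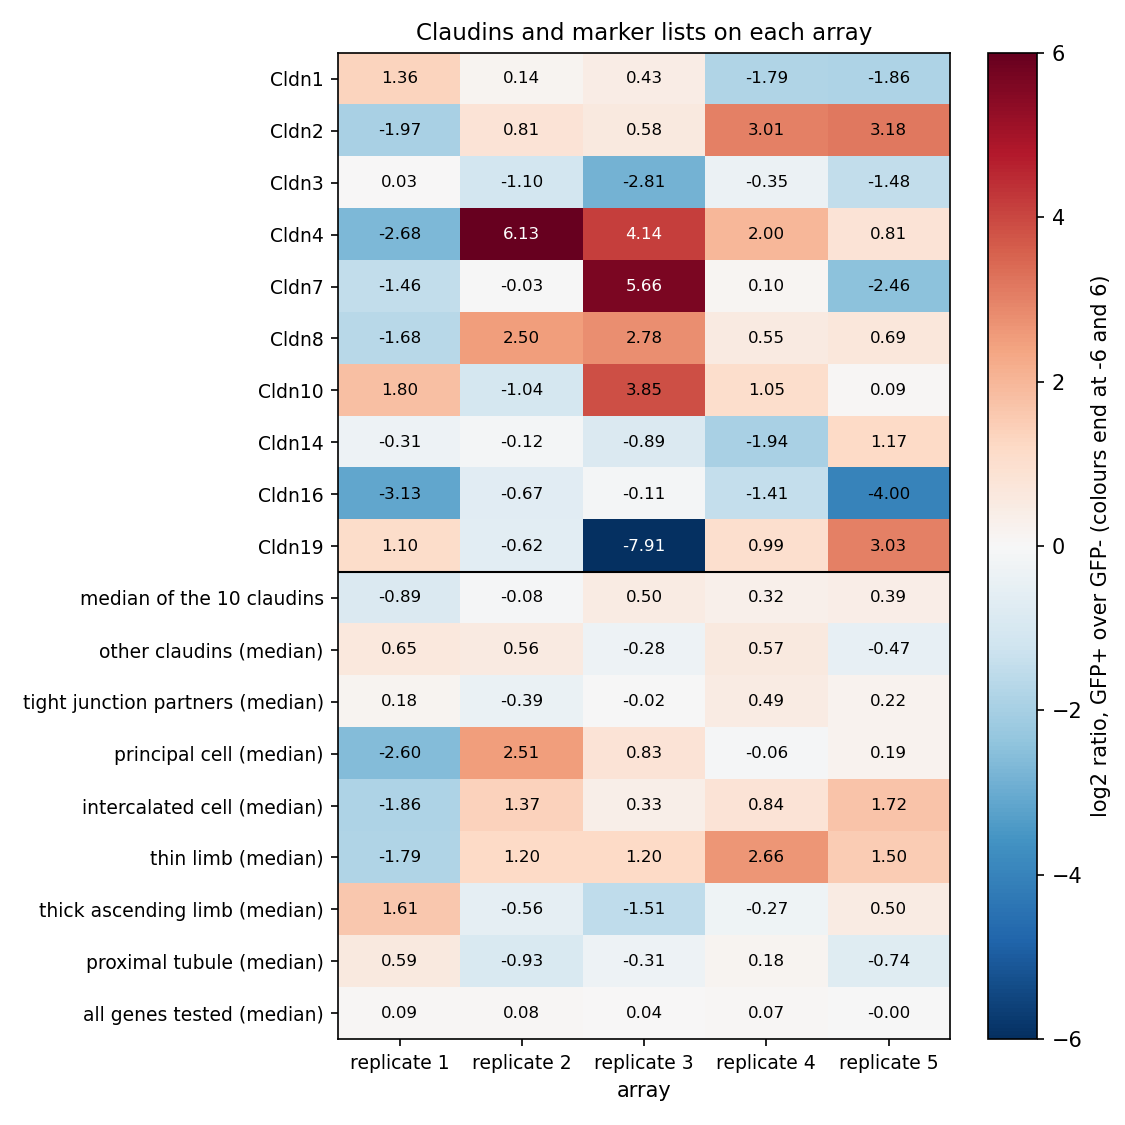
Normalized log2 ratio, GFP+ over GFP- as likely direction, on each of the 5 arrays for the 10 claudins (upper block) and for the median of each of 9 gene lists (lower block), from blue (below 0) to red (above 0). The replicate 1 column is blue for Cldn2, Cldn4, Cldn7, Cldn8, Cldn14 and Cldn16 and for the median of the 10 claudins. It is also blue for the lists of thin limb, intercalated cells and principal cells. Of the list rows above 0 in that column, the thick ascending limb is highest at 1.61, and the rest are at 0.65 or less.

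Other claudins gave no call either. Of 20 further family members listed, 14 were on the array and 12 could be tested, and limma called 0 of them, with 4 means above 0 and a median of -0.13. Cldn13, a rodent claudin, had normalized ratios above 0 on all 5 arrays, at 0.06, 2.19, 1.63, 0.99 and 1.28 with a mean of 1.23 ± 0.79 (SD, n = 5; limma adjusted p = 0.825, unadjusted 0.0363). It was dim, at 5.29 to 18.4 times the negative control in GFP+ cells and 1.53 to 8.63 times in GFP- cells, and above background in 2 of 5 GFP- samples. Before normalization GFP+ cells were the lower on replicate 1, at 5.29 times in GFP+ cells against 8.63 times in GFP- cells. Cldn15, a cation pore best known from the small intestine, was bright, at 1246 to 11850.0 times in GFP+ cells and 865 to 12936 times in GFP- cells. Its ratios of -3.19, 2.22, 0.62, 3.50 and 2.87 turned over on replicate 1 as those of Cldn2 did, with a mean of 1.20 ± 2.68 (SD, n = 5; limma adjusted p = 0.828) and of 2.30 ± 1.24 without that array (SD, n = 4; limma adjusted p = 0.337).

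The proteins that hold claudins at the junction gave 0 calls in limma among 27 tested, with 12 means above 0 and a median of -0.13. At an unadjusted p under 0.05 there were 3 of 27, against 4.94% of genes. Cgn, which encodes the junctional plaque protein cingulin, had ratios of 2.34, 0.80, 1.49, 3.65 and 2.66, all above 0, with a mean of 2.19 ± 1.10 (SD, n = 5; limma adjusted p = 0.825, unadjusted 0.00522). Igsf5, a junctional adhesion molecule, averaged 2.23 ± 1.98 and was above 0 on 4 of 5 arrays (SD, n = 5; limma adjusted p = 0.825, unadjusted 0.0261). Pard6b, a polarity protein named here after its value was seen, averaged -4.55 ± 4.93 (SD, n = 5; limma adjusted p = 0.825). Magi1, a junctional scaffold, was below 0 on all 5 arrays, with a mean of -2.71 ± 3.50 (SD, n = 5; limma adjusted p = 0.825). The Magi1 ratio was -8.75 on replicate 2 and between -2.36 and -0.20 on the other arrays. Magi1 and Pard6b had 3 tested probes each and Cgn and Igsf5 had 2, of which only the brightest is given. The same holds for other genes named from the lists, such as Lnx1 and Wnk1 with 4 tested probes each and Krt7 with 2. The core partners Tjp1, which encodes ZO-1, and Ocln, which encodes occludin, averaged -0.13 ± 1.97 and 1.14 ± 2.22 (SD, n = 5 each).

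Genes known to control claudins gave 0 calls in limma among 18 tested, with 10 means above 0 and a median of 0.23. Lnx1, a ubiquitin ligase for claudins, averaged 2.20 ± 2.43 and was above 0 on 4 of 5 arrays (SD, n = 5; limma adjusted p = 0.825). Wnk1, a kinase that acts on claudin phosphorylation and salt transport, averaged -1.37 ± 1.29 and was below 0 on 4 of 5 arrays (SD, n = 5; limma adjusted p = 0.825). Grhl2, a transcription factor of tubule epithelium that is known to act on Cldn4, averaged -0.12 ± 1.31 (SD, n = 5).

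Named markers of the remaining lists were likewise short of the limma threshold, with 0 calls in each list. Of principal cell genes, Avpr2, the vasopressin receptor, averaged 1.03 ± 1.49 and Scnn1a, a sodium channel subunit, -2.51 ± 4.47 (SD, n = 5 each). Scnn1a was above background in 2 of 5 GFP+ samples. Its ratio was -10.31 on replicate 2 and between -1.64 and 0.99 on the other arrays. The intercalated cell exchangers Slc4a1 and Slc4a9 averaged 2.52 ± 5.09 and -1.14 ± 1.98, and the thin limb markers Sptssb and Cryab 2.99 ± 3.80 and 1.31 ± 1.77 (SD, n = 5 each). For the thick ascending limb Enox1 averaged 1.24 ± 1.55 and Slc5a3, a myo-inositol transporter, -1.58 ± 2.59, and for the proximal tubule Miox averaged -1.38 ± 2.51 and Slc22a6 -0.38 ± 0.88 (SD, n = 5 each). Enox1 had a ratio above 0 on all 5 arrays, but it was above background in 1 of 5 GFP- samples, and without replicate 1 its mean was 0.55 ± 0.11 (SD, n = 4). Of the urothelium, which lines the papilla's outer face, 7 of 11 means were above 0, with Psca at 2.57 ± 2.58 and Krt14 at -1.77 ± 1.10 (SD, n = 5 each). Krt14 was below 0 on all 5 arrays, whereas Upk3a, a uroplakin, was above 0 on all 5, at 0.72 ± 0.48 (SD, n = 5). Among 13 general epithelial genes 7 means were above 0, with a median of 0.34. Krt7, a keratin, was below 0 on all 5 arrays at -1.82 ± 0.24, and Muc1, an apical mucin, averaged -1.74 ± 1.95 (SD, n = 5 each). Of all genes tested, 8681 of 17424 had a mean above 0. Of endothelial genes 4 of 9 were above 0, with Flt1 at -1.09 ± 1.49 and Plvap at 0.80 ± 0.96 (SD, n = 5 each). Of interstitial genes 3 of 11 were above 0, with Col1a1 at -1.84 ± 2.50 and Cspg4 at -0.74 ± 0.72 (SD, n = 5 each). Of leukocyte genes 3 of 10 were above 0, with Cd79a at -1.48 ± 3.15 and Lyz2 at -1.81 ± 4.03 (SD, n = 5 each).

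For each claudin, the gene of the other lists whose 5 ratios lay closest was found by the root mean square difference over the 5 arrays, among 162 genes. Cldn4 lay closest to Fxyd4, a sodium pump subunit of the collecting duct, at 0.85, with Fxyd4 ratios of -2.60, 4.89, 3.41, 0.79 and 0.49. Cldn7 lay closest to Ovol1, a transcription factor, at 0.34, with Ovol1 ratios of -0.83, 0.30, 5.80, -0.08 and -2.29. Ovol1 and Cldn7 were both far above 0 on replicate 3, and Fxyd4 and Cldn4 on replicates 2 and 3. Cldn2 lay closest to Cryab at 0.83, Cldn3 to the cadherin Cdh1 at 0.81, Cldn8 to Cldn13 at 1.00 and Cldn10 to Avpr2 at 0.74. Cldn1 lay closest to the junction scaffold Mpdz at 0.65, Cldn14 to the matrix gene Lum at 0.59 and Cldn16 to Wnk1 at 1.07. Cldn19 had no close neighbour, the nearest being Slc5a3 at 1.76. These distances describe 5 arrays and are smaller for genes of small spread.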

How the data were processed

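Each of the 5 arrays was a 2-colour Agilent whole mouse genome array. Per the file headers, the deposited table of an array holds 2 channel intensities per probe and their log10 ratio. Agilent Feature Extraction is named in the submitters' processing notes, and the sources used here give no version of it. The deposited log10 ratio equalled that of the intensities within 0.001 for 11 of the 12 claudin probes on each array, and 0 of them had been marked by the authors' software. Offset 50 was added to the intensities, which were taken to log2 and normalized within the array by loess (span 0.3, control probes at weight 0, marked probes left out). A probe was tested if either channel reached 3 times the negative control probe on 3 or more of the 5 arrays, and a gene was represented by its brightest tested probe. Of 41174 non-control probes 33479 had 1 symbol, 45 several and 7650 none here, and 17424 genes were tested.

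The test was limma's, of the mean ratio against 0 (version 3.58.1 under R 4.3.3, two-sided, Benjamini-Hochberg adjustment over all genes, threshold 0.05). Each array pairs both populations of a replicate. Claudins and gene lists were chosen with earlier results of these data known. By rule, the text names all claudins and their probes, the 2 genes of lowest unadjusted p in each other list, other claudins and junction partners with 1 sign on all arrays, and the nearest gene by ratio. Tjp1, Ocln, Grhl2, Aqp2, Umod and Slc12a1 are named as defining genes beside that rule, and Upk3a for its 1 sign on all 5 arrays. Alternatives were an offset of 16, median centring without loess, the deposited log10 ratio, no filter on dim probes, a filter on both channels, the mean of a gene's probes, array weights and each replicate left out. The direction GFP+ over GFP- is likely, from the usual Cy5 over Cy3 order of such ratios and the labels' dyes. The number of arrays limits the precision.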

Additional observations from a re-analysis of the deposited data

Results flagged for a closer look

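The second Cldn19 probe, A_51_P171332, had a ratio of -3.42 on replicate 2, while its other 4 arrays lay between -0.28 and 0.44. On that array it measured 470 times the negative control in GFP+ cells and 4127 times in GFP- cells, and the brighter Cldn19 probe had a ratio of -0.62. Without replicate 2 the mean of the second probe was 0.05 ± 0.37 (SD, n = 4), beside -0.64 ± 1.58 with all arrays (SD, n = 5). It was found by searching 26 groups of values for a value far from the others, so such a gap can arise by chance.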

How the results depend on the processing

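Under every alternative run, limma called 0 claudins and 0 genes at the 0.05 threshold, and the smallest adjusted p of any gene ranged from 0.326 (without replicate 1) to 0.974. With a replicate left out, between 597 and 1999 of the 17424 genes had an unadjusted p under 0.05 in limma. The 59 claudin ratios recomputed with another offset, normalization, filter or probe rule kept their direction. Those recomputed with array weights did so too. Of the claudin ratios, 4 turned sign with a replicate left out. Cldn7 was -0.965 without replicate 3 (range -0.965 to 1.064 over the 5 left out), and Cldn19 was 1.125 (range -1.612 to 1.125). Cldn1 was 0.017 without replicate 4 and 0.034 without replicate 5 (range -0.771 to 0.034). The cause was not tested. Cldn1 could not be tested where both channels had to be above background. With 5 arrays, the spread between arrays limits what can be called, Cldn1 in both populations and Cldn2 in GFP- cells of replicates 4 and 5 lie near background, and dye and population cannot be told apart.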
